A study of Mus musculus with 18 samples.

Results

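The genes described here are 10 genes of the mouse MHC class II pathway: the transactivator gene Ciita, the class II chain genes H2-Aa, H2-Ab1 and H2-Eb1, the peptide-editing genes H2-DMa, H2-DMb1 and H2-DMb2, their modulators H2-Oa and H2-Ob, and the invariant chain gene Cd74. They were taken by gene name, with earlier results of these data known, and are 10 of 21307 named genes on the array. The array names 9 of them by these symbols and Ciita by its older symbol C2ta. Together they have 16 probes, and 6 of the 10 genes have 1 probe each. All 16 probes passed the filter on dim signals, and 14 of them were well above background on all 18 arrays. Where a gene has several probes they are numbered by brightness, probe 1 being the brightest.

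The study asked how the loss of Irf4 alters the response of macrophages to interleukin 4 (IL-4). RNA came from bone marrow-derived macrophages of C57BL6/J mice of 8 to 12 weeks (2 males and 1 female), grown from pooled marrow with human rCSF1. The 6 groups of 3 arrays cross Irf4+/- and Irf4-/- cells with mock culture for 18 h, IL-4 at 10 ng/ml for 4 h and IL-4 for 18 h. The letters A, B and C name 3 independent experiments on littermates. The control genotype carries 1 Irf4 allele, so no group is wild type. The 4 h cultures are read against mock cells kept for 18 h. Each pool of cells mixes several animals, and the labels do not say which sex or animal lies behind which array. P-values therefore concern these 3 experiments and not single animals. In fits without a term for the letter they are set against the spread between experiments. Fits with such a term take out each letter's shift, and their p-values are set against the scatter that remains.

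MHC class II molecules are heterodimers that display peptides from endocytosed proteins to CD4+ T cells. Their alpha and beta chains assemble with the invariant chain Cd74, which blocks the peptide groove until lysosomal proteases cut it. H2-DM then exchanges the remaining fragment for peptide, and H2-DO restrains H2-DM, mostly in B cells. Transcription of these genes depends on CIITA, a coactivator that does not bind DNA itself. It docks on the RFX, CREB and NF-Y factors that occupy the X and Y boxes of class II promoters. B cells and dendritic cells express the pathway constitutively. Macrophages raise it in response to interferon gamma and, in mice, to IL-4. IRF4 is a lymphoid and myeloid transcription factor that IL-4 induces in macrophages.

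The Y and X boxes are the letters through which CIITA reaches its targets, so the promoters of the class II genes are shown first. The RefSeq promoter table (GRCm38.p6) lists 7 of the 10 genes, and none of Ciita, H2-Ab1 and Cd74. For 6 of the 7 genes the Y box letters TGATTGG lie within 150 bases of the start, and those 150 bases are printed, 5′ to 3′ on the gene's own strand. Capitals mark the Y box TGATTGG, the X1 core AGCAAC and the X2 forms GATGATG and TGACGTCA. H2-Aa lies at chr17:34287824-34287973 on the minus strand. The others lie on the plus strand, H2-Eb1 at chr17:34305717-34305866, H2-DMb1 at chr17:34153041-34153190, H2-DMb2 at chr17:34145099-34145248, H2-Oa at chr17:34092229-34092378 and H2-Ob at chr17:34238755-34238904.
H2-Aa: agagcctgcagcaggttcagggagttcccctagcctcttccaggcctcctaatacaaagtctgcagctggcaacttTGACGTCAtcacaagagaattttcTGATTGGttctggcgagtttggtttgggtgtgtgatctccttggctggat
H2-Eb1: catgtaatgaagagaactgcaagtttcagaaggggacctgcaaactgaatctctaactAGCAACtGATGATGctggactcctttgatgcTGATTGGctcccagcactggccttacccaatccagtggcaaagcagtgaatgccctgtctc
H2-DMb1: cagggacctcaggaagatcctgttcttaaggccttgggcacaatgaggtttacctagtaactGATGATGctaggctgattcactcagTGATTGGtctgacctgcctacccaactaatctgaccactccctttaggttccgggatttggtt
H2-DMb2: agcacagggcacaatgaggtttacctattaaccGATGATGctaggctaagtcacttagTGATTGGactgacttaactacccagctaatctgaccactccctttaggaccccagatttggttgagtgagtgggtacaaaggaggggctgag
H2-Oa: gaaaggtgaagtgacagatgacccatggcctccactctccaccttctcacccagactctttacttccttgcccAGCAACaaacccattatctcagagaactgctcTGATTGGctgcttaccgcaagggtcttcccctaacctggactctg
H2-Ob: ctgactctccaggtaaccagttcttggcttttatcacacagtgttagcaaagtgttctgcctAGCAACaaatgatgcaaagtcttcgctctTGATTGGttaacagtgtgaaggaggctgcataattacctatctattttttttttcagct

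Each of these 6 stretches held 1 Y box in the orientation of the gene, and an X box match upstream of it. From the first base of the X2 match to the first base of the Y box there were 24 bases in H2-Aa and H2-Eb1 and 25 bases in H2-DMb1 and H2-DMb2. From the first base of the X1 core there were 31 bases in H2-Eb1, 29 in H2-Ob and 32 in H2-Oa. Over the 250 bases before the start and on both strands, the Y box letters occur in 7.23% of 32851 RefSeq promoters. The shares are 12.2% for AGCAAC, 2.92% for GATGATG and 1.55% for TGACGTCA. The shorter core CCAAT, which is part of the Y box read on the other strand, occurs in 33.8% of promoters and in all 7 genes, H2-DMa included. The composite element at which PU.1 and an IRF bind side by side occurs in 2.30% of promoters and in none of the 7 genes. The interferon-activated letters TTCNNNGAA occur in 7.02% of promoters and, among the 7 genes, in H2-DMb2. A match is a description of letters, and a missing match says only that these letters are not in the window.

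**Figure D1:**
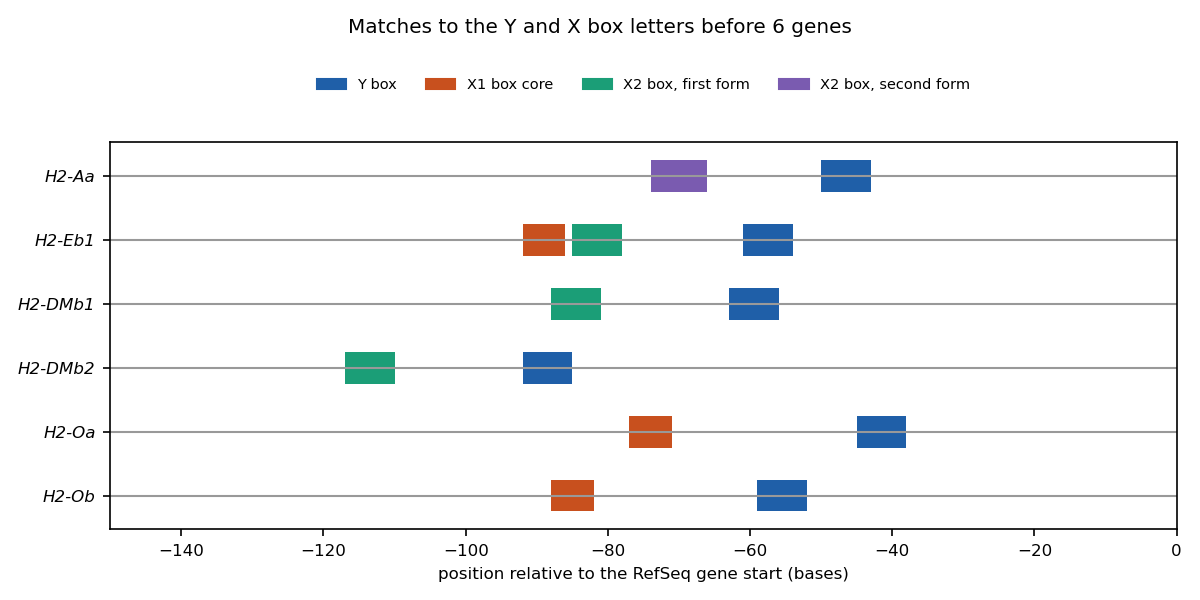
Positions of matches to the Y box (TGATTGG), the X1 core (AGCAAC) and the X2 forms (GATGATG and TGACGTCA) in the 150 bases before the RefSeq start of 6 genes; the x axis is the distance from the start in bases. In every gene an X box match lies upstream of the Y box, with 24 to 32 bases between their first bases.

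On every array between 63.4% and 74.4% of 43379 spots were well above background, and no probe of the 10 genes was saturated. In letters A and B each genotype was hybridised on a slide of its own, so slide and genotype cannot be told apart there, and in letter A the genotypes were also scanned on different days. Letter C was scanned on 1 day over 3 slides, again with the genotypes of each condition on different slides. No genotype difference within a letter and condition was therefore read on a single slide. The probe for Irf4 was not lower in the Irf4-/- libraries: the log2 differences from Irf4+/- were 0.34, 0.049 and 0.25 in mock, 4 h and 18 h cells. The sources used here do not say whether this probe lies in the deleted part of the gene, so it does not check the labels. All 8 macrophage markers, Csf1r and Adgre1 among them, were well above background on all 18 arrays. The arrays measure RNA of whole cultures, in which fewer cells of a type and less RNA per cell cannot be told apart.

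Ciita was higher in Irf4+/- than in Irf4-/- cells in each condition and each letter, and it was higher after IL-4. Levels are given as log2 signal minus the array's 75th percentile of signal. In Irf4+/- mock cells the Ciita level was 0.14, 0.34 and -1.98 in letters A, B and C, with a mean of -0.50 ± 1.29 (SD, n = 3). It was 1.06, 1.00 and -0.81 after 4 h of IL-4, and 1.95, 1.61 and -0.058 after 18 h. In Irf4-/- cells the level was -0.92, -1.80 and -3.02 in mock culture, -0.60, -0.68 and -1.81 at 4 h, and -0.31, -1.01 and -1.98 at 18 h. Letter C was the lowest in all 6 groups, and the genotypes overlapped in mock and 4 h cells but not at 18 h. Ordered by mean, the groups ran from Irf4+/- at 18 h (1.17), Irf4+/- at 4 h (0.42) and Irf4+/- mock (-0.50) to Irf4-/- at 4 h (-1.03), Irf4-/- at 18 h (-1.10) and Irf4-/- mock (-1.92). The SDs of these groups lay between 0.68 and 1.29, so no neighbours in that order differed beyond the spread between letters. Within letters some did: the Irf4+/- 4 h level was above the mock level in all 3, a change tested with IL-4 further on.

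**Figure D2:**
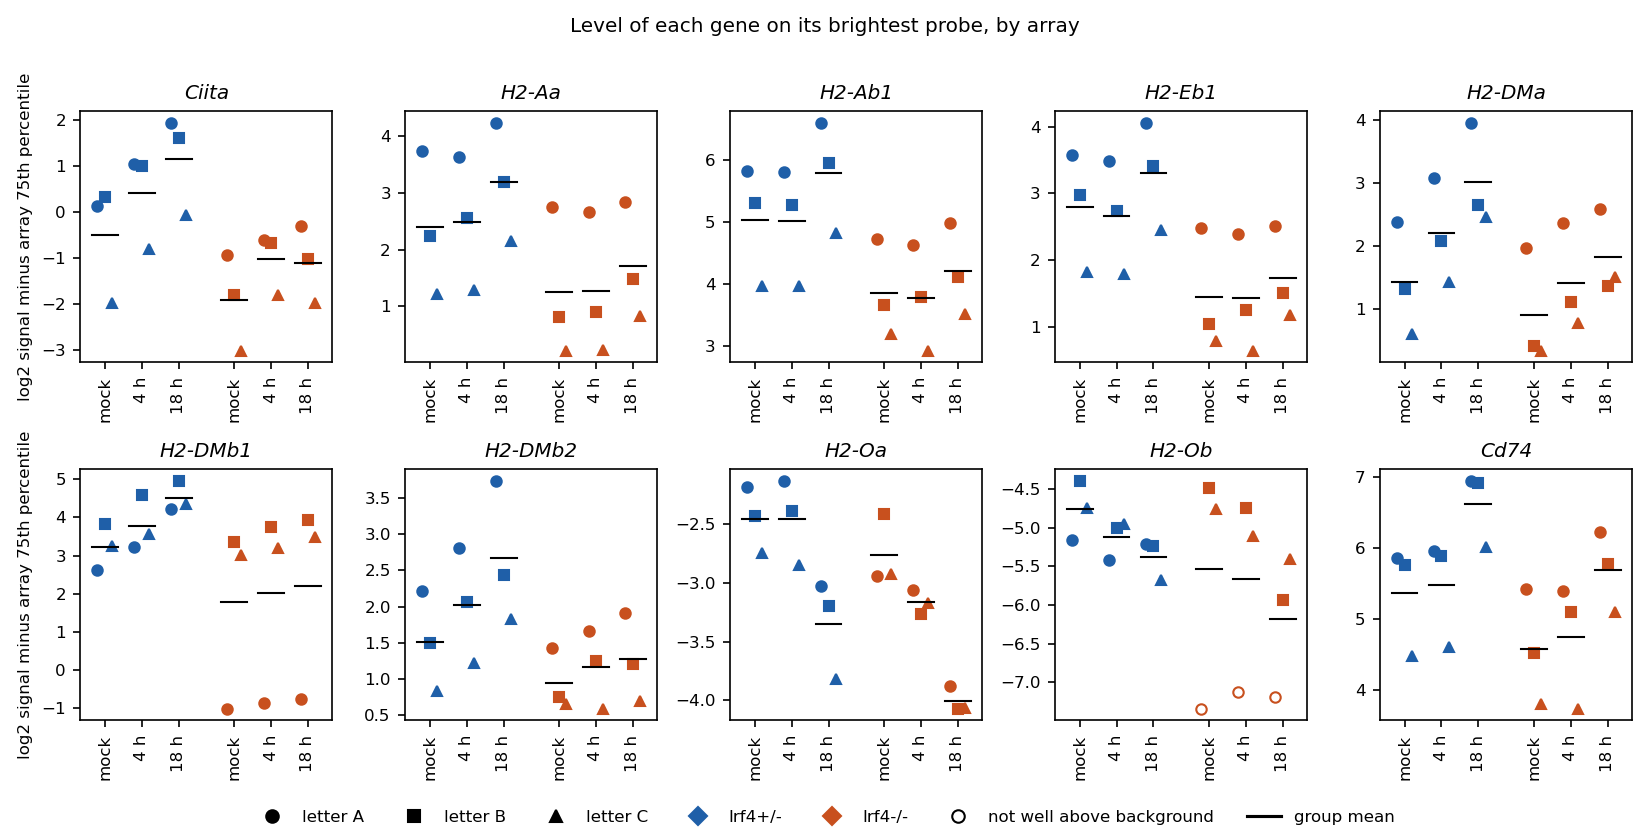
Level of each of the 10 genes on its brightest probe, 1 point per array, as log2 signal minus the array's 75th percentile, by genotype (colour), condition (x axis) and letter (symbol); lines are means of 3 arrays and open symbols are arrays not well above background. The Irf4-/- means lie below the Irf4+/- means of the same condition for all 10 genes, and the letter A points of H2-DMb1 and H2-Ob in Irf4-/- cells lie far below all others of those genes.

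The first comparison asked whether class II genes depend on Irf4 in resting and IL-4-treated macrophages. The class II chain genes and Ciita were lower in Irf4-/- cells, with log2 differences over their 8 probes of -1.13 to -1.41 in mock culture, -1.22 to -1.45 at 4 h and -1.47 to -2.27 at 18 h. H2-DMa and H2-DMb2 differed by -0.46 to -0.57 in mock culture and by -1.20 to -1.98 at 18 h. Cd74 differed by -0.73 to -0.93, and H2-Oa by -0.31 to -0.71. Over all 16 probes the median difference (Irf4-/- minus Irf4+/-) was -1.15 in mock cells, -1.22 at 4 h and -1.59 at 18 h, against medians of -0.054, -0.012 and -0.0060 over all 27505 probes tested.

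The direction was shared by the experiments. In each of the 3 conditions 15 of the 16 probes were lower in Irf4-/- cells in all 3 letters, which held for 20.7%, 11.5% and 13.1% of all probes in mock, 4 h and 18 h cells. Of the 16 probes 14 were lower in all 9 pairs of arrays (3 letters in 3 conditions), as were 2.74% of all probes. The exceptions were H2-Oa probe 1, lower in 8 of 9 pairs, and H2-Ob, lower in 7 of 9. The 3 conditions of a letter and genotype are 1 experiment and may share 1 pool of cells, so the 9 pairs are not taken as independent. The groups did not overlap, with Irf4-/- lower, for 2 probes in mock cells, 3 at 4 h and 7 at 18 h, against 4.78%, 1.50% and 3.09% of all probes.

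Whether a probe passed the test turned on how the letter was treated. In limma fits with 1 mean per group and no term for the letter, 0 of the 16 probes were called between genotypes (Benjamini-Hochberg adjusted p under 0.05) in any condition, as were 0 (0%) of all probes. At an unadjusted p under 0.05 there were 3, 4 and 9 of the 16 in mock, 4 h and 18 h cells, against 608, 201 and 762 of all 27505 probes. With the letter as a replicate block, 6 of the 16 probes were called lower in mock cells, 6 at 4 h and 11 at 18 h. Over all probes the blocked fits called 9 (0.0327%), 7 (0.0254%) and 51 (0.185%). At an unadjusted p under 0.05 the blocked fits had 12, 14 and 15 of the 16, against 3426, 1710 and 3641 of all 27505 probes. The called probes were H2-Aa probe 1, all 4 of H2-Ab1 and that of H2-Eb1 in mock and 4 h cells. At 18 h they were those of Ciita, H2-Aa, H2-Ab1, H2-Eb1, H2-DMa and H2-DMb2.

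The calls in mock and 4 h cells rested on the full set of arrays. In mock cells the blocked count was 0 when any 1 of 12 of the 18 arrays was left out, among them all 6 mock arrays. The others of the 12 were the Irf4+/- 4 h array of letter A, the Irf4+/- 18 h arrays of B and C, and the 3 Irf4-/- 4 h arrays. At 4 h the blocked count was 0 without any 1 of 11 arrays. These were the Irf4+/- mock, 4 h and 18 h and Irf4-/- 4 h and 18 h arrays of letter A, the Irf4+/- 4 h and 18 h and Irf4-/- 4 h arrays of B, and the Irf4+/- mock and 18 h and Irf4-/- 4 h arrays of C. At 18 h between 8 and 11 probes were called whichever single array was left out. Without all 6 arrays of letter A the blocked counts were 0, 0 and 10, while 1, 1 and 571 of all 27505 probes were called. With normexp background correction and the block the counts of the 16 probes were 0, 0 and 0. The differences called in the blocked fit were all still negative. The medians of all probes with normexp were 0.205, -0.192 and -0.409. When the few spots far below their local background were left out of normexp, the blocked counts were 6, 8 and 10. That omission was chosen after the data were seen.

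The blocked fit counts the 3 arrays of a genotype and letter, called a pool here, as separate samples. When the pool was added as a random block, 3 of the 16 probes were called in mock cells, 5 at 4 h and 10 at 18 h, and 8 were called over the mean of the 3 conditions. The same fits called 3 (0.0109%), 5 (0.0182%), 14 (0.0509%) and 10 (0.0364%) of all probes. H2-Ab1 and H2-Eb1 were called in all 3 conditions, Ciita, H2-Aa and H2-DMb2 at 18 h, and H2-DMa in none (0.0515 at 18 h). This fit was added after the data were seen. When each pool was first averaged to 1 value, 3 against 3, the 16 differences had a median of -1.31 and 0 were called, with or without the letter as a block (0% of all probes). At an unadjusted p under 0.05 those limma fits had 5 of 16 without the block and 14 of 16 with it. Of all 27505 probes they had 158 without the block and 1151 with it. A blocked fit of only the 6 arrays compared called 0 of 16 in each condition, with 11, 14 and 13 at an unadjusted p under 0.05. Over all 27505 probes it called 0 in each, with 1957, 839 and 1455 at an unadjusted p under 0.05.

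**Figure D3:**
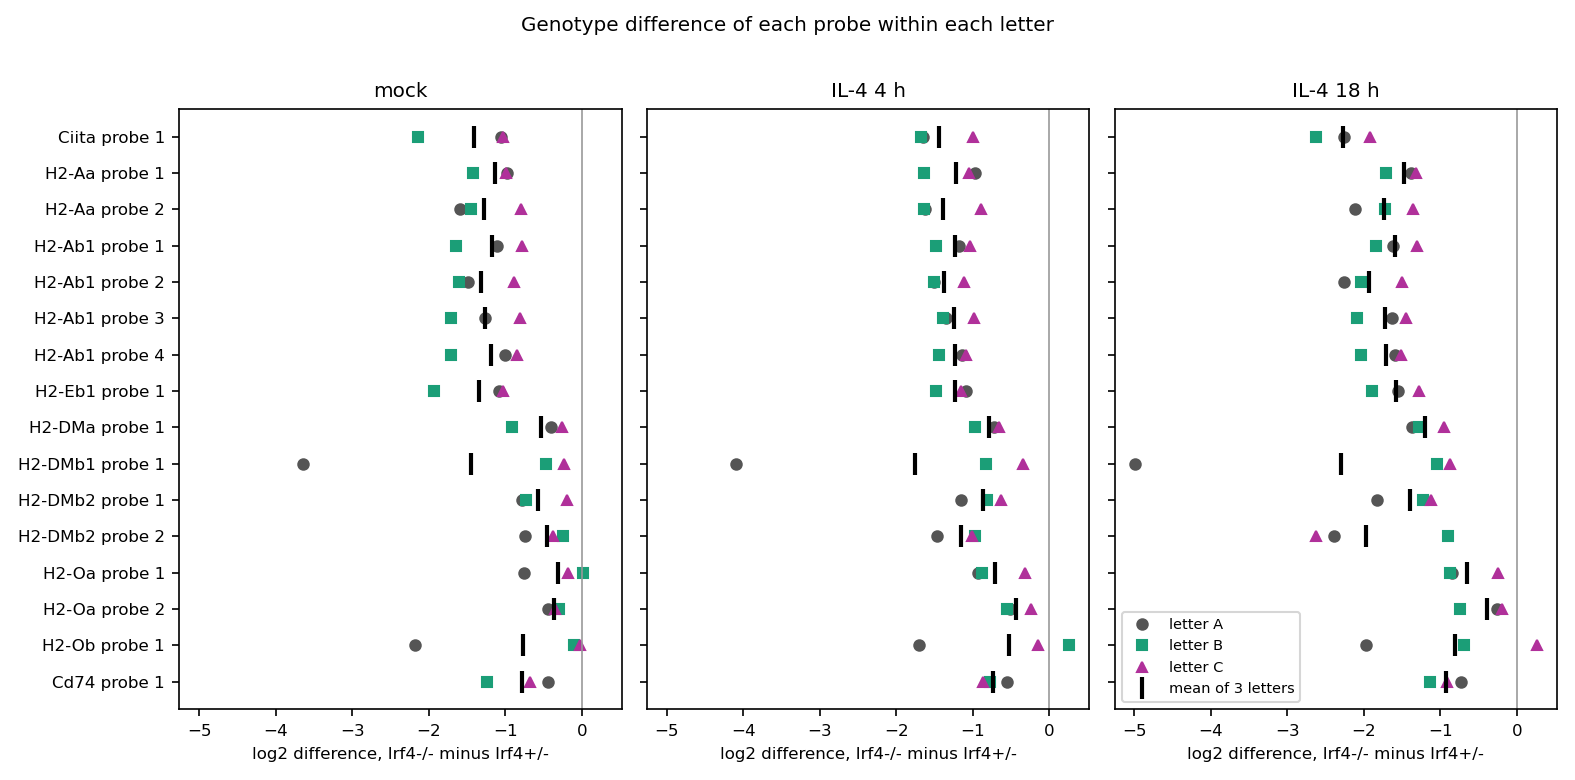
Log2 difference between Irf4-/- and Irf4+/- cells of the same letter for each of the 16 probes (rows), in mock, 4 h and 18 h cells; symbols are letters A, B and C and black bars their mean. Nearly all points lie left of 0, and the letter A points of H2-DMb1 (-3.65, -4.10 and -5.00) and H2-Ob (-2.18, -1.71 and -1.98) stand apart from the other letters.

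By gene, the largest genotype difference that passed the blocked test was that of Ciita at 18 h. It was -2.27 ± 0.76 (SE of the fit without the letter), or 4.82-fold lower. The letters were at -2.26, -2.63 and -1.92, and the limma adjusted p was 0.00183 with the replicate block. In mock and 4 h cells the Ciita differences were -1.41 and -1.45, with blocked adjusted p of 0.11 and 0.117. Without letter A the 18 h difference was -2.27 and its blocked adjusted p 0.038.

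H2-Ab1, the beta chain of the I-A molecule, is the gene with the most probes. On probe 1 the level in Irf4+/- cells was 5.82, 5.30 and 3.98 in mock culture, 5.81, 5.28 and 3.97 at 4 h, and 6.60, 5.96 and 4.83 at 18 h. In Irf4-/- cells it was 4.72, 3.66 and 3.20, then 4.63, 3.80 and 2.92, then 4.98, 4.11 and 3.52. Within each letter the Irf4-/- arrays were all below the Irf4+/- arrays, while the groups overlapped because letters A and C differed by more than the genotypes did. The 4 probes gave 18 h differences of -1.59, -1.93, -1.72 and -1.71, and blocked adjusted p between 0.00095 and 0.00153. Probe 2 is printed as 10 spots on each array, whose values had a median within-array SD of 0.054. Its groups did not overlap between genotypes in any condition: the Irf4+/- levels at 18 h were 4.32, 4.30 and 3.16 and the Irf4-/- levels 2.07, 2.26 and 1.66.

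H2-Aa, the I-A alpha chain, was at 3.73, 2.24 and 1.21 on probe 1 in Irf4+/- and at 2.75, 0.81 and 0.22 in Irf4-/- mock cells. At 18 h it was at 4.23, 3.19 and 2.15 in Irf4+/- and at 2.85, 1.48 and 0.83 in Irf4-/- cells. The groups overlapped on this probe, whereas on probe 2 they did not overlap in any condition (2.81, 3.51 and 2.44 against 0.69, 1.78 and 1.08 at 18 h). It had 18 h differences of -1.47 ± 0.89 on probe 1 and -1.74 ± 0.41 on probe 2, with limma adjusted p of 0.0036 and 0.0044 in the blocked fit. Its probes differed in how the letters stood: on probe 1 letter A was highest in every group, and on probe 2 letter B was. H2-Eb1, the beta chain of the I-E molecule, was at 4.06, 3.40 and 2.46 in Irf4+/- and 2.51, 1.50 and 1.17 in Irf4-/- cells at 18 h. These groups overlapped by the Irf4+/- array of letter C, and the difference was -1.58 ± 0.64 (blocked adjusted p of 0.00226 in limma). Its partner gene H2-Ea, which C57BL/6 mice do not transcribe, was well above background on 0 of 18 arrays. H2-Eb2, another class II beta chain gene, was well above background on 6 and 4 of 18 arrays on its 2 probes.

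Cd74, the invariant chain that guides class II to the loading compartment, passed no test between genotypes. Its Irf4+/- levels were 5.86, 5.76 and 4.48 in mock culture, 5.95, 5.88 and 4.60 at 4 h, and 6.95, 6.92 and 6.01 at 18 h. Its Irf4-/- levels were 5.42, 4.53 and 3.81, then 5.40, 5.11 and 3.74, then 6.22, 5.78 and 5.10. The genotypes overlapped in each condition. The difference of -0.93 ± 0.56 at 18 h did not pass the blocked test (limma adjusted p = 0.0677), and those of -0.78 and -0.73 in mock and 4 h cells did not either.

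Of the H2-DM genes, whose product loads peptide, H2-DMa differed by -0.53 ± 0.63 in mock cells. At 18 h it was at 3.96, 2.64 and 2.46 in Irf4+/- and 2.58, 1.36 and 1.51 in Irf4-/- cells, a difference of -1.20 with a blocked adjusted p of 0.00887. H2-DMb2 was on probe 1 at 2.21, 1.49 and 0.84 in Irf4+/- and 1.43, 0.76 and 0.65 in Irf4-/- mock cells, and at 3.74, 2.44 and 1.83 against 1.91, 1.21 and 0.70 at 18 h. The groups overlapped in both conditions, through letter A of Irf4-/- cells. It differed at 18 h by -1.40 on probe 1 and -1.98 on probe 2, both with a blocked adjusted p of 0.00887. Probe 2 was dim and not well above background on 3 of 18 arrays: the letter B mock arrays of both genotypes and the Irf4-/- 18 h array of letter C. H2-DMa did not stay called without letter A (0.0506), nor did H2-DMb2 probe 2 (0.0537), while H2-DMb2 probe 1 did (0.038).

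H2-DMb1 stood apart through 3 arrays. The Irf4-/- arrays of letter A were at -1.03, -0.88 and -0.78 in mock, 4 h and 18 h cells, whereas the Irf4+/- arrays of letter A were at 2.62, 3.22 and 4.22. In letters B and C the Irf4-/- levels were 3.35 and 3.02 in mock culture, 3.76 and 3.21 at 4 h, and 3.93 and 3.48 at 18 h. Thus 3 arrays lay more than 3 log2 units below the other 15, and the differences by letter at 18 h were -5.00, -1.05 and -0.87. The 18 h difference was -2.31 ± 1.37 with all letters (blocked adjusted p = 0.272) and -0.96 without letter A (blocked adjusted p = 0.0454). That fit without letter A called 571 of all 27505 probes, 542 of them lower. The array file lists the H2-DMb1 accession beside H2-DMb2 probe 1 too, so that probe may read both genes; in letter A its differences were -0.78, -1.15 and -1.83.

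H2-Ob showed the same 3 arrays apart. Its Irf4-/- levels in letter A were -7.34, -7.13 and -7.19, none of them well above background, against -5.16, -5.42 and -5.21 in Irf4+/- cells of that letter. In letters B and C the genotype differences lay between -0.70 and 0.26. No condition was called for H2-Ob, with blocked adjusted p of 0.531 to 0.935. These 3 arrays share 1 slide and 1 scan day, and may come from 1 pool of cells. Their summed level of 7 neutrophil markers was 53.6 to 56.4 times the array's 75th percentile, against 15.8 to 29.0 on the other 15 arrays, and that of 8 macrophage markers was 483.4 to 544.1, against 657.9 to 1042.1. The largest part of the neutrophil sum was S100a9, at log2 levels of 5.40, 5.45 and 5.33 on these 3 arrays. Not every marker followed its sum. The neutrophil marker Mmp8 (1.38, 1.12 and 1.10) and the macrophage marker Itgam (4.40, 4.07 and 4.16) lay within the range of the other 15 arrays. The part of the slide, the scan day, the pool and these markers in the H2-DMb1 and H2-Ob values was not tested.

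H2-Oa, which pairs with H2-Ob to form the H2-DM inhibitor, differed between genotypes by -0.31, -0.71 and -0.66 on probe 1 and by -0.37, -0.43 and -0.40 on probe 2 in mock, 4 h and 18 h cells. On probe 1 the levels at 18 h were -3.03, -3.20 and -3.82 in Irf4+/- and -3.88, -4.07 and -4.06 in Irf4-/- cells, and the groups did not overlap at 4 h and 18 h. No difference was called, with blocked adjusted p of 0.158 to 0.777.

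The second comparison asked what IL-4 does to these genes within a genotype. With the letter as a block, Ciita, H2-DMa, H2-DMb2 (probe 1) and Cd74 rose 2.23- to 3.18-fold after 18 h in Irf4+/- cells, and H2-Aa and H2-Ab1 1.65- to 1.78-fold. H2-Oa fell 1.77- to 1.86-fold, a direction that normexp background correction turned. In Irf4-/- cells Ciita rose 1.76-fold, H2-DMa 1.89-fold and Cd74 2.16-fold, and H2-Oa fell 1.80- to 2.37-fold.

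At 18 h in Irf4+/- cells 13 of the 16 probes were higher in all 3 letters, against 28.5% of all probes, and the median was 0.81 against 0.0090. The limma fit without the letter called 0 of 16, while 3.01% of all probes were called. At an unadjusted p under 0.05 it had 6 of 16, against 2935 of all 27505 probes. With the replicate block 13 of 16 were called, 11 higher and 2 lower, while 12.5% of all probes were. Leaving out any 1 array kept that count between 10 and 14, and without all 6 arrays of letter A it was 9 (2026 of all 27505 probes). With normexp and the block it was 2.

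Ciita rose by 1.67 ± 0.76 on the log2 scale (letters 1.81, 1.27 and 1.93; blocked adjusted p = 0.00046). H2-DMa rose by 1.59 ± 0.63, from 2.37, 1.32 and 0.59 to 3.96, 2.64 and 2.46, with no overlap (blocked adjusted p = 3.28e-05 in limma). H2-DMb2 rose by 1.16 on probe 1 and by 1.82 on probe 2, which was well above background on 2 of its 3 mock arrays. For H2-DMb1 the difference was 1.28 (letters 1.60, 1.15 and 1.10) and did not pass the blocked test (adjusted p = 0.415), while without letter A it was 1.12 and did (0.00901).

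Cd74 rose by 1.26 ± 0.56 with no overlap between the groups (blocked adjusted p = 0.000442 in limma). The H2-Ab1 probes rose by 0.72 to 0.83 and the H2-Aa probes by 0.80 and 0.82, with blocked adjusted p of 0.00465 to 0.0181. H2-Eb1 differed by 0.51 ± 0.64 and was not called (blocked adjusted p = 0.0725). H2-Aa probe 2 and the H2-Ab1 probes were not called without letter A (0.065 to 0.133).

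H2-Oa fell by 0.89 ± 0.24 on probe 1, from -2.18, -2.43 and -2.75 to -3.03, -3.20 and -3.82, with no overlap (blocked adjusted p = 0.00536 in limma). On probe 2 it fell by 0.82 (0.00136). This direction depended on the background correction: with normexp on the raw spot and local background signals the differences were 0.51 and 0.61, where the median of all probes was 0.49. When the few spots far below their local background were left out of normexp, they were -0.56 and -0.50. H2-Ob differed by -0.61 and was not called.

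In Irf4-/- cells at 18 h the limma fit without the letter called 1 of 16 probes, where 2.58% of all probes were called, and the replicate block called 5, where 14.4% were. With normexp and the block 0 were called. Ciita rose by 0.81 (letters 0.61, 0.79 and 1.04; blocked adjusted p = 0.0352), H2-DMa by 0.92 (0.00225) and Cd74 by 1.11 (0.00121). Without letter A the Ciita change of 0.92 was not called (0.0896). H2-Oa fell by 1.25 ± 0.24 on probe 1, from -2.94, -2.41 and -2.93 to -3.88, -4.07 and -4.06. These groups did not overlap, and this was the 1 probe called without the block (limma adjusted p = 0.0112). That call was lost without the Irf4-/- mock array of letter B (0.0748) or the Irf4-/- 18 h array of letter C (0.0603), with normexp in either form, and when only the groups compared were fitted. Probe 2 fell by 0.85 (blocked adjusted p = 0.00119). The 7 probes of H2-Aa, H2-Ab1 and H2-Eb1 differed by 0.19 to 0.46, and none was called.

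After 4 h the class II chain genes and Cd74 were close to their mock levels in both genotypes. Ciita, H2-DMa, H2-DMb1 and H2-DMb2 probe 2 were higher in every letter of both. In all 3 letters 6 of 16 probes were higher in Irf4+/- and 4 of 16 in Irf4-/- cells, against 27.4% and 33.6% of all probes. The limma fit without the letter called 0 of 16 probes in either genotype, against 3.20% (Irf4+/-) and 2.89% (Irf4-/-) of all probes. At an unadjusted p under 0.05 it had 0 of 16 in either, against 3488 and 3403 of all 27505 probes. With the replicate block 3 of 16 were called in Irf4+/- and 2 of 16 in Irf4-/- cells. These counts were near the shares of all probes called, 15.3% and 15.0%. Ciita rose by 0.92 in Irf4+/- (letters 0.92, 0.66 and 1.18; blocked adjusted p = 0.0179) and by 0.89 in Irf4-/- cells (0.33, 1.13 and 1.21; 0.0227). H2-DMa rose by 0.77 (0.00551) and 0.51 (0.0469), and H2-DMb2 probe 2 by 1.17 in Irf4+/- cells (0.00917). The 7 chain probes differed from mock by -0.13 to 0.094 in the Irf4+/- and by -0.13 to 0.0070 in the Irf4-/- cells. Without letter A, or with normexp, none of the 16 probes was called with the block at 4 h in either genotype. Without letter A 2722 (Irf4+/-) and 2673 (Irf4-/-) of all 27505 probes were called. The Irf4-/- count also fell to 0 without the mock array of letter B or C or the 4 h array of letter B or C of that genotype.

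**Figure D4:**
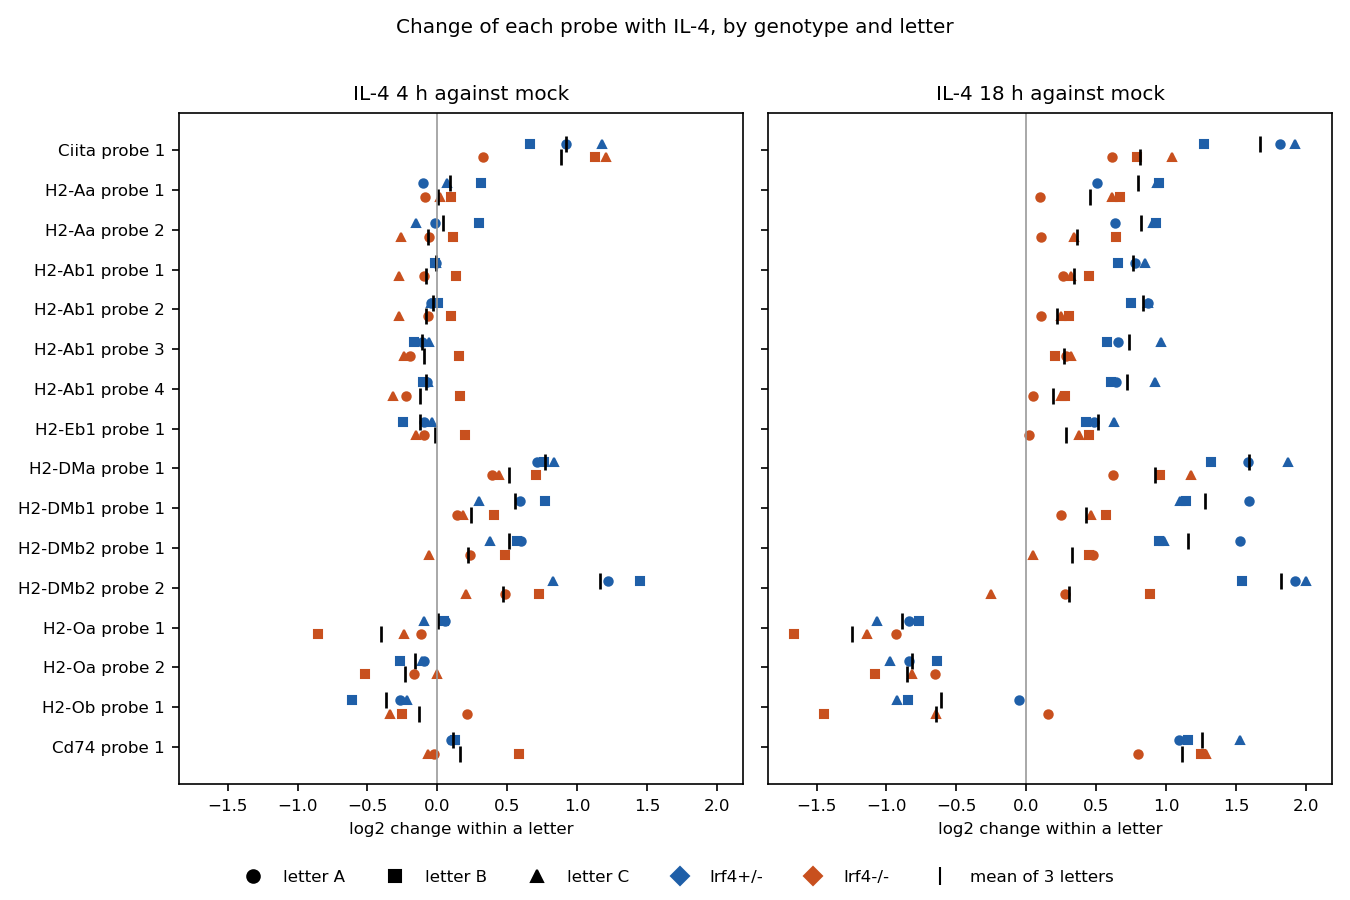
Log2 change of each of the 16 probes (rows) from mock culture to 4 h (left) and 18 h (right) of IL-4 within each letter; blue is Irf4+/-, orange Irf4-/-, symbols are letters and black bars means of 3. At 4 h the points of H2-Aa, H2-Ab1, H2-Eb1 and Cd74 lie around 0 and those of Ciita to the right of it, while at 18 h all but the H2-Oa and H2-Ob rows have means to the right of 0.

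The 18 h cells were also read directly against the 4 h cells. In Irf4+/- cells the 7 chain probes rose by 0.64 to 0.86, Cd74 by 1.14 and H2-DMa by 0.82, all called with the replicate block. Ciita differed by 0.75 (blocked adjusted p = 0.0704) and was not called. H2-Oa fell by 0.89 and 0.66, and with normexp these differences were 0.23 and 0.40. The blocked fit called 12 of 16 probes, 10 higher and 2 lower, while 8.44% of all probes were called. The limma fit without the block called 0 (0.774% of all called). At an unadjusted p under 0.05 it had 1 of 16, against 2258 of all 27505 probes. The blocked count was 7 without the 4 h array of letter A, 8 without the 18 h array of letter B, 5 without the 4 h array of letter C and 6 without the 18 h array of letter C, all of Irf4+/- cells. It was 1 without the whole of letter A (900 of all 27505 probes) and 0 with normexp. In Irf4-/- cells Cd74 rose by 0.95 and H2-Oa fell by 0.84 and 0.62, the 3 of 16 called with the block (5.37% of all). Ciita was at -0.073 there, and 0 were called without the block (0.374% of all). At an unadjusted p under 0.05 there was 1 of 16, against 1860 of all 27505 probes. The Irf4-/- blocked count of 3 was 0 without the 4 h array of letter C and 1 without the 4 h array of letter A or the 18 h array of letter B or C, all of Irf4-/- cells. It was 0 without letter A (577 of all 27505 probes) and 0 with normexp.

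Whether the genotypes responded differently to IL-4 was tested as the difference of the changes. At 18 h the change with IL-4 was lower in Irf4-/- cells for all 16 probes, with a median of -0.46 against 0.041 over all probes. The difference was -0.86 ± 1.08 for Ciita (letters -1.20, -0.48 and -0.89), -0.68 ± 0.89 for H2-DMa and -1.52 ± 1.32 for H2-DMb2 probe 2. For Cd74 it was -0.15 ± 0.79. The SEs here are from the fit without the letter, so they hold spread between letters that cancels in changes within a letter. None of the 16 differences was called in limma, with or without the block (0% of all probes). At an unadjusted p under 0.05 there were 0 of the 16 without the block and 6 with it, against 117 and 890 of all 27505 probes. A p that misses the threshold does not show that the genotypes responded alike. At 4 h the median difference was -0.067, and 0 were called in either fit (0% of all), with 0 at an unadjusted p under 0.05. Of all 27505 probes 85 were under that p without the block and 646 with it.

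Genes around CIITA were taken from fixed lists. Of 12 genes of the promoter complex and its chromatin partners (RFX, NF-Y and CREB subunits, CBP, p300, PCAF, BRG1 and Ciita), Ciita was the 1 called between genotypes, at 18 h with the block. Rfx5, the DNA-binding subunit of RFX, fell with IL-4 by 0.45 at 4 h and 0.42 at 18 h in Irf4+/- cells and by 0.56 at 18 h in Irf4-/- cells (blocked adjusted p of 0.0212, 0.0344 and 0.00814). Rfxap, another RFX subunit, fell by 0.36 and 0.33 at 4 h (0.019 and 0.0317). Between genotypes Rfx5 differed by -0.35, -0.12 and -0.48 and was not called.

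Of 15 genes that act upstream of Ciita, none was called between genotypes with or without the block. Irf1, which carries the interferon gamma signal to Ciita, differed between genotypes by -0.021 at 18 h, Irf8 by 0.20 and Spi1, the gene of PU.1, by -0.39. With IL-4 the fit without the block called Jak2, Socs1 and Irf4 higher at both times in both genotypes and Il4ra higher at 4 h. Stat6, the IL-4 signal transducer, fell at 4 h by 0.57 in Irf4-/- cells (adjusted p = 0.0414) and, with the block, by 0.49 in Irf4+/- cells (0.00706). Socs1, a feedback inhibitor of JAK signalling, rose by 5.93 and 4.38 at 4 h and 18 h in Irf4+/- and by 5.65 and 4.27 in Irf4-/- cells. Irf4 itself rose by 2.78 and 2.38 in Irf4+/- and by 2.50 and 2.29 in Irf4-/- cells (limma adjusted p of 0.000958, 0.00284, 0.00232 and 0.00451). Its Irf4-/- levels went from -0.97, -0.53 and -0.81 to 2.11, 1.50 and 1.57 at 4 h.

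Of 16 genes of class II antigen processing and traffic, none was called between genotypes. Cd83, which stabilises class II at the surface, rose by 1.91 at 4 h in Irf4+/- cells (adjusted p = 0.0204) and, with the block, by 1.47 in Irf4-/- cells (0.0242). Cd82, a tetraspanin of the loading compartment, fell by 1.07 and 0.99 at 18 h (0.00271 and 0.00578). Ctss, the protease that trims the invariant chain, differed by 0.097 in Irf4+/- and 0.55 in Irf4-/- cells at 18 h and was not called. In Irf4-/- cells at 18 h the block added Ctsl (0.62), Lamp1 (0.45) and Marchf8 (0.38), all higher. Among 6 measured genes of the class II region other than the 10, Tap1, a peptide transporter of the class I pathway, fell by 0.86 and 1.11 at 18 h with the block (0.0155 and 0.00372). None of the 6 was called between genotypes.

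Class II genes are also expressed by B cells and dendritic cells, and 5 of 8 B cell markers, Cd79a among them, were well above background on all 18 arrays. Their summed level followed the letters: in mock culture it was 37.3, 11.3 and 5.46 times the array's 75th percentile in Irf4+/- and 24.2, 8.48 and 5.41 in Irf4-/- cells. At 18 h it was 13.8, 6.62 and 2.79 in Irf4+/- and 10.4, 5.68 and 2.96 in Irf4-/- cells. The largest part was Ighm, at log2 levels of 5.11, 3.14 and 1.71 in Irf4+/- mock cells. In every group the sum was highest in letter A and lowest in letter C. Single markers differed in this: Cd22 was lowest in letter A in every group, at -4.14, -1.78 and -2.28 in Irf4+/- mock cells, and Ms4a1 was lowest in letter A in that group. Within each letter and genotype the sum was lower at 18 h than in mock culture. Of 6 B cell markers tested, 6, 4 and 6 were lower in Irf4-/- cells in mock, 4 h and 18 h cells, with medians of -0.44, -0.14 and -0.22 and 0 called with or without the block. Of 7 conventional dendritic cell markers tested, 6, 6 and 5 were lower, with medians of -0.49, -0.23 and -0.30 and 0 called. Of 6 neutrophil markers tested, 5, 5 and 6 were higher in Irf4-/- cells, with medians of 0.41, 0.32 and 0.54, and of 8 macrophage markers 7, 6 and 3 were lower, with medians of -0.29, -0.13 and 0.073, again with 0 called. The sum of the 8 dendritic cell markers was 1.00 to 1.98 in mock cells and 3.84 to 37.2 at 18 h. Its largest part was Batf3, which went from -0.32 ± 0.28 to 2.89 ± 1.02 in Irf4-/- and from 0.27 ± 0.12 to 3.87 ± 1.16 in Irf4+/- cells (log2 level, SD, n = 3). Of these 8 markers Flt3, Zbtb46, Xcr1 and Batf3 were well above background on all 18 arrays, Dpp4 on 17, Ccr7 on 16, Clec9a on 4 and Cd209a on 3. Of 6 plasmacytoid markers 5 were well above background on all 18 arrays and Siglech on 0. The part of such cells in the class II values was not tested.

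As a description of likeness, genes were ranked by Pearson's r over the 18 arrays with the mean of H2-Aa, H2-Ab1, H2-Eb1 and Cd74. The 18 points share 3 letters and 6 pools, and 13661 other genes were ranked. The closest were Ppm1d (0.95), Ramp1 (0.93), Gipc3 (0.93), Gng7 (0.92) and Slc36a3 (0.92). After each letter's mean was subtracted they were Neurl2 (0.93), Gstt2 (0.90), Gsdmd (0.89), Nim1k (0.89) and Ppm1d (0.89). With Ciita the closest were Ager (0.92), Gipc3 (0.92), Mturn (0.90), Sqor (0.87) and Olfr508 (0.87). After the letter means were subtracted they were Il2 (0.91), Masp2 (0.91), Zfp523 (0.90), Gipc3 (0.89) and 5430410E06Rik (0.89). Among the 10 genes themselves, Ciita had an r of 0.92 with the chain and Cd74 mean both before and after the subtraction, H2-DMb2 0.94 and 0.89, and H2-DMa 0.91 and 0.87. H2-DMb1 had -0.011 before and 0.68 after it, and H2-Oa 0.22 and 0.043.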

How the data were processed

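RNA of 18 cultures was hybridised to 1-colour Agilent arrays, and spot intensity values were read with Agilent Feature Extraction 9.5.1, per the file headers and the submitters' processing notes. Here, log2 of the processed intensity minus the array's 75th percentile of it was taken, and spots of a probe were averaged. Kept were 27505 of 41174 probes, a probe having to be well above background throughout 1 or more groups of 3 arrays. limma 3.58.1 (R 4.3.3, statmod 1.5.0) was fitted over all kept probes and the 6 groups, two-sided, with Benjamini-Hochberg adjustment and calls at adjusted p under 0.05. The fit was repeated with the letter as a block. Printed SEs are those of the fit without it. The letters pair samples, since the labels describe 3 independent experiments on littermates: deviations from group means correlated at 0.32 to 0.89 (median 0.6) over 45 same-letter pairs and at -0.68 to 0.22 over 90 others. For the mean over conditions, the 3 arrays of each genotype and letter were averaged first. The fits were run on simulated data with noise drawn independently for each array, with or without a shift per letter. Only the IL-4 4 h and 18 h against mock contrasts in Irf4+/- cells were read there. No genotype contrast and no further correlation within a genotype and letter was simulated. The deposited log2 table of the authors holds each array minus its letter's Irf4+/- mock array, and member differences from it were within 0.009 of those used here. How that table was made is not stated in the sources used here. Descriptions used Python 3.11.15, numpy 2.4.6, pandas 2.3.3 and matplotlib 3.10.9.

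Every probe of the 10 genes is reported. Genes of 4 further lists (promoter complex and chromatin, upstream of Ciita, antigen processing and traffic, other class II region genes) were counted by their brightest kept probe. Those called, and Irf1, Irf8, Irf4, Spi1, Rfx5 and Ctss, could be named; 1 further gene of the rule is not reported here. The 5 other genes of highest Pearson r were named for likeness. Markers of macrophages, B cells, dendritic cells and neutrophils are given in the report. The 7 measured T and NK cell markers summed to 0.161 to 0.307 times the 75th percentile, the 6 plasmacytoid dendritic cell markers to 4.35 to 8.67 and the 6 fibroblast markers to 0.372 to 1.17. Members and lists were chosen with earlier results of these data known. Alternatives were other background corrections, scalings, filters, blocks and left-out arrays. Array number limits the precision.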

Additional observations from a re-analysis of the deposited data

How the results depend on the processing

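Counts are of the 16 probes, in the order 4 h and 18 h against mock in Irf4+/-, the same in Irf4-/-, 18 h against 4 h in Irf4+/- and Irf4-/-, then Irf4-/- against Irf4+/- in mock, 4 h and 18 h cells. Without a block they were 0, 0, 0, 1, 0, 0, 0, 0 and 0. Over all 27505 probes they were 881, 827, 794, 710, 213, 103, 0, 0 and 0. The replicate block gave 3, 13, 2, 5, 12, 3, 6, 6 and 11. Over all probes it gave 4211, 3430, 4132, 3965, 2321, 1478, 9, 7 and 51. Fitted on only the groups compared, the block gave 5, 14, 2, 5, 11 and 1 and then 0 for the genotypes, and without it the 1 was 0. Over all probes that block gave 5815, 2525, 5189, 3144, 2363 and 394 and then 0 for the genotypes. Quantile normalization with the replicate block gave 3, 13, 1, 5, 12, 2, 1, 1 and 10, and median scaling with it 3, 12, 1, 5, 9, 3, 1, 6 and 11. One probe per gene with the replicate block gave 2, 7, 2, 4, 7, 2, 3, 3 and 7 of 10 genes. With normexp the 18 h Irf4-/- count was 0, and with the block as well all counts were 0, the 3 genotype counts included, except 2 at 18 h in Irf4+/- cells. Normexp turned H2-Oa in Irf4+/- cells to 0.51 and 0.61 (18 h against mock) and 0.23 and 0.40 (18 h against 4 h), with and without the block, and moved the median of all probes by -0.60 to 0.48 (median scaling, by -0.10 to 0.11). Leaving out at most 6 spots an array that lay 100 units or more below their local background, which was chosen after the data were seen, normexp with the block gave 2, 12, 1, 5, 11, 1, 6, 8 and 10, and 8 for the mean over conditions, and without the block 0 for 18 h in Irf4-/- cells. The slide as a block gave 5, 15, 1, 6, 13 and 4, scan day 3 at 18 h in Irf4+/- and 1 for the genotypes at 18 h, and the pool as a random block 4, 14, 2, 5, 12 and 3. The replicate block with the pool as a random block gave 4, 15, 3, 7, 14, 5, 3, 5 and 10, and 8 for the mean over conditions. Over all probes it gave 7404, 6033, 8209, 8439, 4905, 4156, 3, 5 and 14, and 10 for that mean. Without letter A the 18 h Irf4+/- count was 1, and with the block 9, with 5 at 18 h in Irf4-/-, 1 for 18 h against 4 h in Irf4+/- and 10 for the genotypes at 18 h. Over all probes those 4 blocked counts were 2026, 3616, 900 and 571. Leaving out 1 array gave 0 to 1 for 18 h in Irf4-/- and 0 elsewhere without the block. With it the counts were 2 to 4, 10 to 14, 0 to 2, 4 to 5, 5 to 12, 0 to 3, 0 to 6, 0 to 7 and 8 to 11. The pool as a random block was not run for the mean over conditions. The causes of these changes were not tested. Counts over all probes are not given here for the other settings. The probes nearest background were H2-Ob and H2-DMb2 probe 2, each well above it on 15 of 18 arrays. The largest spread between letters was that of H2-DMb1 in Irf4-/- cells, with SDs of 2.44, 2.54 and 2.60 in mock, 4 h and 18 h cells.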
